A study of Mus musculus with 17 samples.

Results

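All 14 Smarcb1-null mouse tumors of the series were compared with its 3 healthy brains, and 694 of the 21494 genes tested met a strict rule for a change common to all tumors. A gene met the rule when it differed from brain in the same direction, at an adjusted p under 0.05 by edgeR's quasi-likelihood test, in each of 4 tumor groups taken separately, and when no tumor library lay inside the range of the brain libraries. Of these genes, 364 were higher in tumors (1.69% of the genes tested) and 330 were lower (1.54%). They are called shared genes below. Because the values that chose them are those printed for them, their folds and p-values describe them and are not separate evidence. The same holds for the gap between tumors and brains, which the rule required of every shared gene: over all genes tested, all 14 tumors lay above the 3 brains for 1527 and below them for 2298.

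Polyadenylated RNA was sequenced from mice of the strain C57BL/6J. The tumors were labelled SMARCB1 -/-. CNS tumors were of an SHH subtype (n = 3) or a Myc subtype (n = 4), a further group lay outside the cranium (extracranial tumors, n = 4), and the last held tumor grown in the flank as a syngeneic graft (n = 3). The healthy brains (n = 3) were labelled WT. A syngeneic graft grows in a host of the same strain, which keeps its immune cells. The age and sex of the animals, the promoter or Cre line that removed Smarcb1, the tumor of origin of the grafts and the brain region sampled are not stated in the sources used here. All 4 contrasts share the same 3 brains, and the brains differ from the tumors in genotype, tissue makeup and possibly age, which cannot be told apart here. In these brains the listed genes of immature and migrating neurons summed to 15780 to 19710 CPM. Those of the oligodendrocyte lineage summed to 285.7 to 315.9 CPM. All folds below are relative to brains of this makeup. The labels do not say which libraries came from separate animals, so the p-values measure the spread between these libraries only.

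Smarcb1 encodes a core subunit of the SWI/SNF complexes, which use ATP to move nucleosomes at promoters and enhancers. Its loss defines rhabdoid tumors, a cancer of early childhood that arises in the brain or in soft tissue and carries few other mutations. SWI/SNF opposes Polycomb repression, and Cdkn2a, a cell cycle inhibitor gene silenced by Polycomb, is among the loci most often tied to it.

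Depth ran from 18685672 to 114338058 counts in the tumors and from 103095016 to 130835711 counts in the brains. A group in which no count was seen allows a level of up to 0.00846 CPM in the brains (3 counts over the group's libraries) and of 0.0137 to 0.0223 CPM in the tumor groups, for counting error only. CPM are TMM-scaled counts relative to library size throughout, and folds are on the log2 scale with their SE. Of the 17 libraries, 5 stood out for transcripts of particular tissues or cell types. Muscle or pituitary transcripts marked Healthy brain 1, Myc CNS tumor 1 and Extracranial tumors 1 and 2. Oligodendrocyte transcripts, of a cell type of the brain itself, marked SHH CNS tumor 1. The mean log2(CPM + 1) of 14 skeletal muscle genes was 3.59 in Healthy brain 1, 3.12 and 2.97 in Extracranial tumors 1 and 2 and 2.44 in Myc CNS tumor 1, against at most 0.95 in the other libraries. The summed level of 5 pituitary genes reached 1362 CPM in Healthy brain 1 and 192.5 CPM in Myc CNS tumor 1, against 1.066 CPM in the brain with the lowest sum. The summed level of 12 oligodendrocyte genes reached 9978 CPM in SHH CNS tumor 1, against 315.9 CPM at most in the brains. Whether brain tissue in that sample or tumor cells made these transcripts was not tested. Without Healthy brain 1, 165 of the 364 higher and 155 of the 330 lower shared genes were still called, and without SHH CNS tumor 1 these were 266 and 176.

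Smarcb1 itself (ENSMUSG00000000902.13, chr10:75896769-75921617, GRCm38) was lower in every tumor. In the brains it was read at 132, 121 and 119 CPM. The SHH tumors gave 33.2, 2.52 and 6.23 CPM, and over all 14 tumors the values ran from 2.52 to 33.2 CPM with a median of 13.1. No tumor came within the brains' range, and the highest tumor stood far below the lowest brain. The log2 fold was -2.96 ± 0.44 (adjusted p = 7.37e-05), and the 4 tumor groups did not differ at the threshold (adjusted p = 0.203). In bulk tissue, fewer cells of a type and less RNA per cell cannot be told apart, here and below. The largest adjusted p of the 4 groups passed 0.05 without Healthy brain 1 (0.0601), Healthy brain 2 (0.0807), Healthy brain 3 (0.0897), SHH CNS tumor 3 (0.119) or Syngeneic graft 3 (0.0606), while the comparison of all tumors with brain stayed called.

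Against this background, SWI/SNF subunit genes leaned lower. Of 30 tested, 17 fell and 4 rose in the comparison of all tumors, where 29.8% of all genes fell and 23.6% rose. Their median log2 fold was -0.76, against -0.04 over all genes. The list includes Smarcb1 itself. How far the lean followed the brains' content of neurons was not tested. The lean was weaker in SHH tumors, where 4 of the 30 fell and 1 rose, with a median of -0.3. Of all genes, 1.94% fell and 2.44% rose in that group. In the Myc tumors, extracranial tumors and grafts 16 to 18 fell, and the medians ran from -0.96 to -0.87. The shares of all genes given here serve for the lists below as well. Beside Smarcb1, 3 subunit genes were lower in each tumor group, namely Smarcc2, Brd9 and Bcl7c, and Ss18 was higher in each. Smarcc2, a scaffold subunit, read 500, 497 and 502 CPM in the brains and between 122 and 342 CPM in the tumors, with SHH tumors at 333, 342 and 299. Smarcc2 met the rule in only 3 of the 17 cases with 1 library left out, with a largest p of 0.155. Brd9 and Ss18, both found in the noncanonical form of the complex that lacks Smarcb1, moved in opposite directions. Brd9 read 97.3, 112 and 111 CPM in the brains and 27.4 to 59.3 CPM in the tumors (log2 fold -1.44 ± 0.12). Ss18 read 34.8, 43.5 and 30.8 CPM in the brains and 59.5 to 155 CPM in the tumors (1.51 ± 0.19). The groups overlapped for neither gene. Bcl7c read 150, 127 and 135 CPM in the brains and 26.3 to 58.1 CPM in the tumors, and it alone of these genes met the rule with each of the 17 libraries left out in turn. Without Healthy brain 3, 1 of the 4 lower members was kept and Ss18 was not, and the same counts were found without Healthy brain 2 or SHH CNS tumor 3; without Healthy brain 1 or Syngeneic graft 3, 2 of the 4 lower members were kept.

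**Figure D1:**
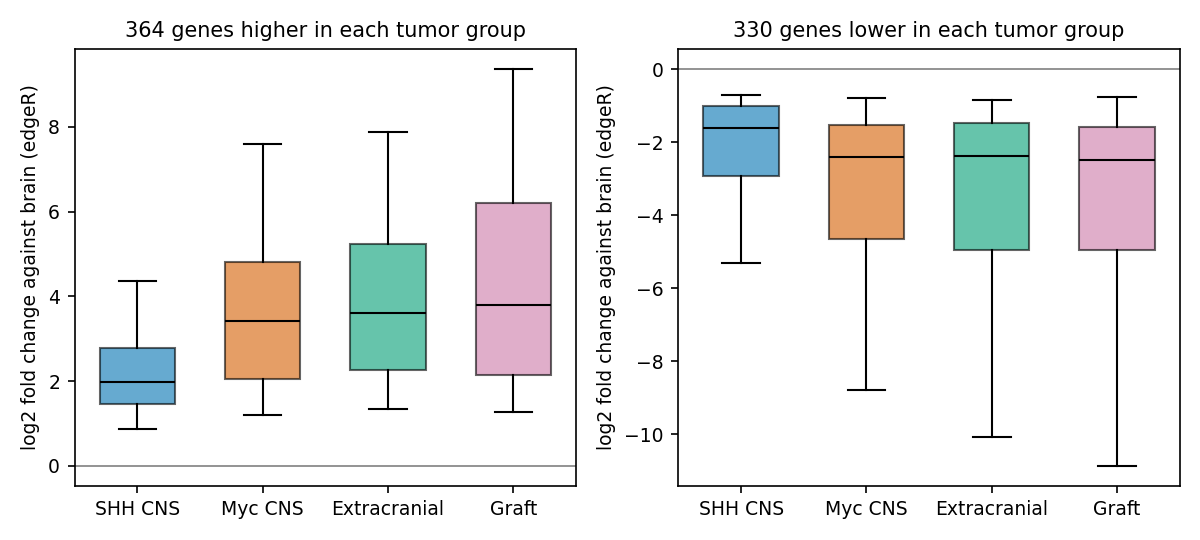
Log2 fold of the shared genes against brain in each of the 4 tumor groups (y axis; boxes give quartiles and median, whiskers the 5th to 95th percentile), higher genes and lower genes drawn separately. The median of the higher genes goes from 1.98 in SHH tumors to 3.79 in grafts, and that of the lower genes from -1.61 to -2.5.

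The shared set was set mostly by the SHH tumors. In that group 524 genes were called higher (2.44%) and 416 lower (1.94%), compared with 5445 (25.3%) and 5771 (26.8%) in Myc tumors, 5610 (26.1%) and 5620 (26.1%) in extracranial tumors, and 5349 (24.9%) and 6542 (30.4%) in grafts. Shared genes made up 69.5% of the higher and 79.3% of the lower calls of the SHH tumors. The SHH contrast gave the largest of the 4 adjusted p-values for 359 of the 364 higher genes and for 320 of the 330 lower genes. Its fold was the smallest of the 4 for 303 higher and 243 lower genes, whereas the grafts had the largest for 210 and 141, as the plot of folds by group shows. Dropping the SHH tumors from the rule raised the counts to 3205 higher and 4122 lower genes.

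The tumors did not share every change evenly. Among genes with a count in every tumor, the highest of the 14 tumors exceeded the lowest by a median ratio of 8.53 for higher genes and of 3.34 for lower genes. The rule gives each higher gene a count in every tumor, whereas 35 lower genes had none in a whole tumor group. Such lower genes have no ratio and were left out, so the 2 medians do not compare like sets. The 4 tumor groups differed from one another, by an F test in the same fit, for 249 of the higher genes (68.4%) and 188 of the lower (57.0%), where 50.5% of all genes differed. Every group's change was at least 2-fold for 327 higher and 239 lower genes and at least 8-fold for 63 and 72. Protein-coding genes were 89.0% of the higher and 87.0% of the lower set, against 76.7% of genes tested. Lower protein-coding genes were long, with a median span of 34.6 kb against 23.7 kb for all protein-coding genes tested and 18.6 kb for the higher ones.

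Cdkn2a (ENSMUSG00000044303.6, chr4:89274471-89294653) was among the most changed of the higher genes. It encodes p16Ink4a, which holds the Rb pathway in check, and p19Arf, which stabilises p53, and gene counts do not separate these products. The brains gave 0.0556, 0.0679 and 0.0875 CPM. SHH tumors gave 2.09, 3.6 and 2.69 CPM, Myc tumors 48, 38.4, 102 and 25.1, extracranial tumors 28.6, 39.4, 18.8 and 25, and grafts 65, 62.6 and 69.1. Every tumor stood above every brain, and the SHH tumors were the lowest 3 of the 14. The log2 fold was 8.3 ± 0.56 over all tumors (adjusted p = 1.28e-07) and 5.27 ± 0.51 in SHH tumors alone, and the rule held with each library left out.

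Trp53, the p53 gene, and 2 of its targets were also shared. Trp53 read 32.4, 44.9 and 37.4 CPM in the brains, and in the tumors it went from 59.7 through a median of 162 to 253 CPM, without overlap (2.07 ± 0.23). Pmaip1, the proapoptotic Noxa gene, read 3.88, 2.05 and 1.47 CPM in the brains and 5.06 to 45.6 CPM in the tumors. Btg2, an antiproliferative gene, read 22.7, 16.5 and 13 CPM in the brains and 75.1 to 570 CPM in the tumors. Of 20 genes of this list, 16 rose and none fell over all tumors, with a median log2 fold of 2.07. Over all genes 23.6% rose and 29.8% fell. In SHH tumors alone, 3 of the 20 were called, all higher, and the median log2 fold was 0.69. Without Healthy brain 2 or Healthy brain 3 none of the 3 shared members was kept, with the largest p for Trp53 at 0.0538 and 0.0857; for Trp53 it also passed 0.05 without Healthy brain 1 (0.0547) and SHH CNS tumor 3 (0.078).

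Some cell cycle genes were shared. Among cell cycle inhibitors, Cdkn2c (p18Ink4c) was shared beside Cdkn2a, at 8.39, 6.78 and 5 CPM in the brains and 13.9 to 57.3 CPM in the tumors. Ccnd1, the cyclin D1 gene that Cdkn2a's p16 product opposes, was the only G1 cyclin or kinase of 12 listed to be shared. The brains gave 36.9, 38 and 35.2 CPM and the tumors 187 to 1219 CPM with a median of 384 (3.57 ± 0.51). Extracranial and Myc tumors reached the highest Ccnd1 levels, and the grafts, at 220, 193 and 188 CPM, lay among the SHH tumors. None of 30 DNA replication genes and none of 25 mitosis genes was shared, where 1.69% of all genes were shared and higher. Over all tumors, 24 and 25 of them rose. In SHH tumors 1 gene of each list was called higher, where 2.44% of all genes were. These counts are near the shares over all genes and do not set the lists apart. The median log2 folds in SHH tumors were 0.58 for replication and 0.89 for mitosis genes, against -0.02 over all genes. SHH CNS tumor 1 lay below every brain for Cdk1 and Mcm2. Cdk1, the mitotic kinase, read 12.1 CPM there against 51.6 and 45.2 in the other SHH tumors and 25.6, 16.9 and 12.5 in the brains, and Mcm2, a subunit of the replicative helicase, read 15, 44.8 and 54.9 CPM in SHH tumors and 23.5, 21.3 and 18.1 in brains. Without Healthy brain 2 (0.0587) or Healthy brain 3 (0.0677) Ccnd1 no longer met the rule. Cdkn2c was lost without these 2 libraries and without SHH CNS tumor 3.

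**Figure D2:**
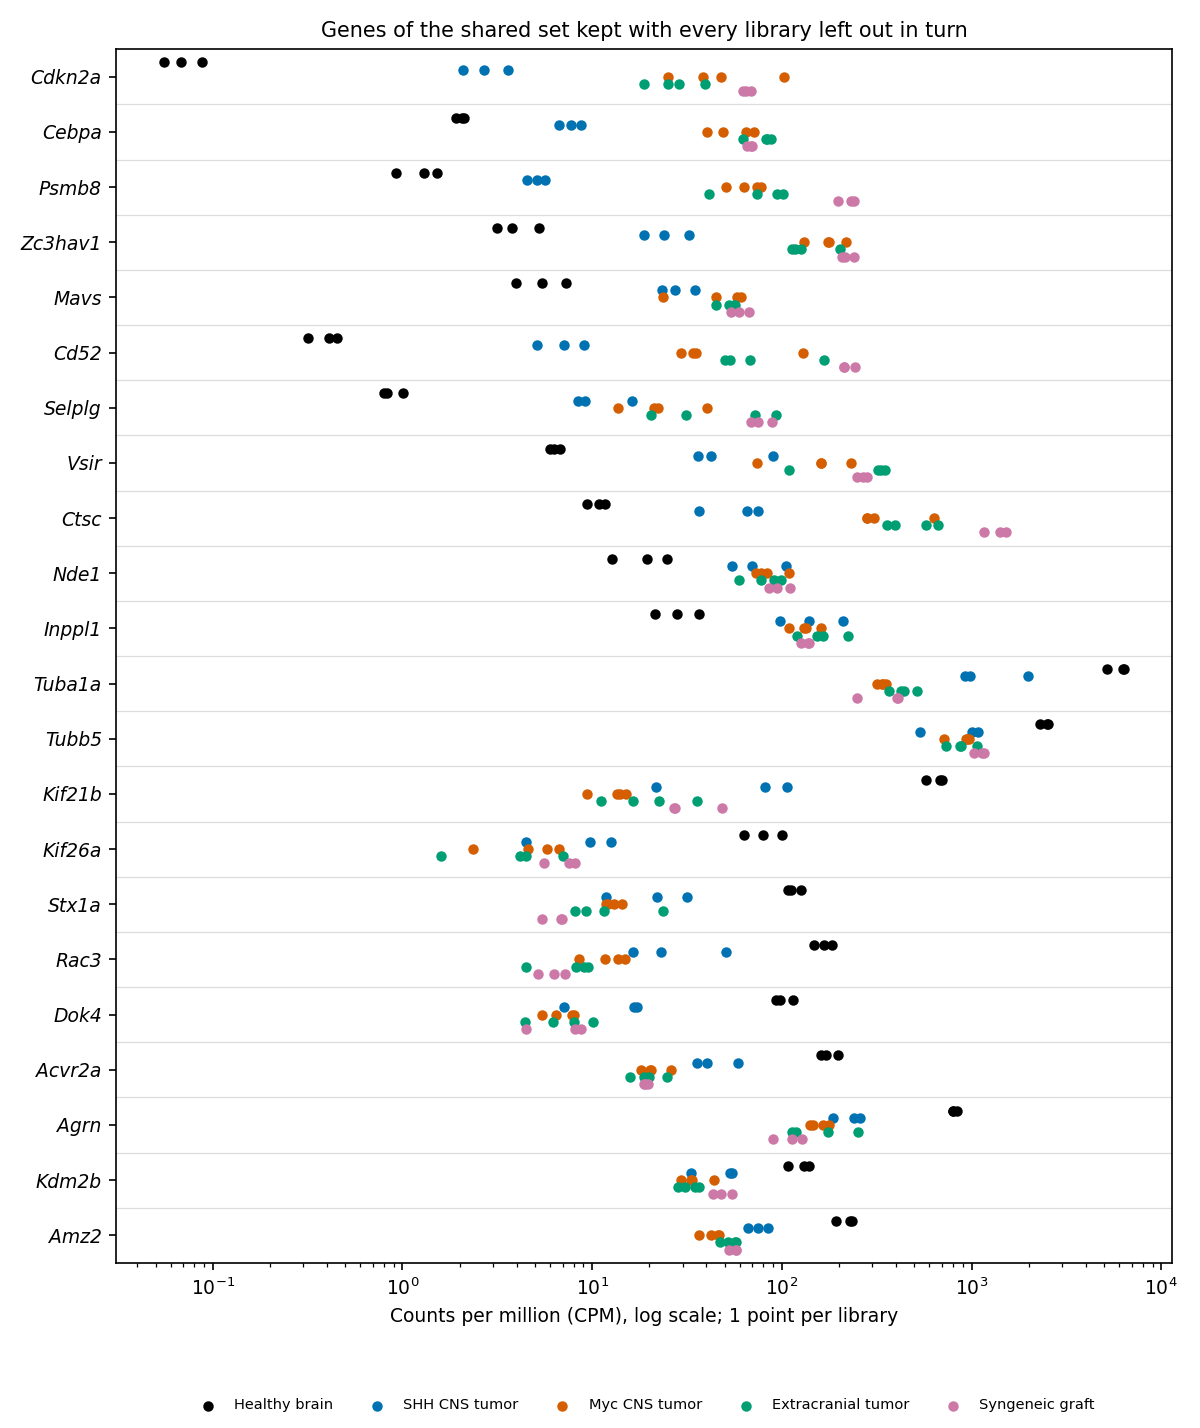
Level of 22 shared genes in each of the 17 libraries (x axis, CPM on a log scale; 1 row per gene, 1 point per library, coloured by group). All 22 were kept with each library left out in turn, so the gap between the 3 brains and the 14 tumors in each row was required by the rule; for Cdkn2a, Cebpa and Psmb8 the SHH tumors lie between the brains and the other tumors.

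Most genes of antigen processing and interferon response rose in Myc tumors, extracranial tumors and grafts, and fewer passed the test in SHH tumors. Interferons induce these genes through STAT and IRF factors, which raises the display of peptides on MHC class I and arms cells against viral RNA. Of 37 interferon response genes 36 rose over all tumors (median log2 fold 4.19), and 8 were called in SHH tumors; all 8 were shared, among them Isg15, Ifit1, Oas1a, Parp9, Parp12, Dtx3l and Igtp. Of 22 MHC class I and immunoproteasome genes all rose over all tumors (3.46), and 5 were shared: B2m, H2-K1, Tap2, Psmb8 and Psmb9.

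The promoters of the 5 shared members of these lists that carry the paired IRF motif GAAANNGAA within 150 bases of their start are shown, because these genes moved together in the 4 groups. The sequences are from RefSeq (GRCm38.p6), end at the base before the start, and read 5′ to 3′ on the gene's strand, with matches on either strand in capitals:
B2m (chr2:122147537-122147686, plus): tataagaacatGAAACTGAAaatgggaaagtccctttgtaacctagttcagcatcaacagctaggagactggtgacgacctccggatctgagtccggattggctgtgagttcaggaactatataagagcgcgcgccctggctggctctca
Ifit1 (chr19:34640739-34640888, plus): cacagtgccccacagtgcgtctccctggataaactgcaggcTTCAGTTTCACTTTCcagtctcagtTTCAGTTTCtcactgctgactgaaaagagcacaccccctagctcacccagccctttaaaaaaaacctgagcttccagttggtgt
Igtp (chr11:58199406-58199555, plus): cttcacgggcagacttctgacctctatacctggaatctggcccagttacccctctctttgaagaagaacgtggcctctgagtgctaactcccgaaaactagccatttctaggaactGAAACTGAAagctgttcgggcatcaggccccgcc
Isg15 (chr4:156200819-156200968, minus): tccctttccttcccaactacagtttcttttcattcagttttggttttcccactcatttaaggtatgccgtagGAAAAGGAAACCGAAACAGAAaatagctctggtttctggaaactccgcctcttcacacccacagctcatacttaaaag
Oas1a (chr5:120907526-120907675, minus): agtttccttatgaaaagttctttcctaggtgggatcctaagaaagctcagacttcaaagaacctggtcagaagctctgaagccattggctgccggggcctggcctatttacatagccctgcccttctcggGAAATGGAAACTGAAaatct

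Over windows from 250 bases before to 50 after the start, searched on both strands, the IRF pair was found for 12.4% of the 282 higher shared genes with a promoter in the table, 9.58% of the 240 lower ones and 9.0% of the 14067 genes tested. Among shared members of the 2 lists 5 of 10 held it. It was 1 of 7 motifs searched. For the others the shares in higher, lower and all genes were 29.8%, 30.8% and 26.4% (NF-kappaB, GGGANNNCC), 17.7%, 12.9% and 15.1% (E-box CAGATG), 11.7%, 8.75% and 10.5% (E-box CACGTG), 8.87%, 10% and 8.67% (E2F, TTTNNCGC) and 2.84%, 2.08% and 3.17% (CRE, TGACGTCA), with PU.1 given below. A match describes the letters only. The windows of higher genes held a median of 13 CG dinucleotides, those of lower genes 25 and those of all genes 19.

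B2m, the light chain of every MHC class I molecule and the first of the promoters shown, read 45.1, 23 and 23.9 CPM in the brains. SHH tumors read 147, 133 and 169 CPM, and the tumors as a whole 133 to 2200 CPM with a median of 990 (4.63 ± 0.42). Psmb8, an inducible catalytic subunit of the immunoproteasome (chr17:34197721-34201454), read 1.52, 0.922 and 1.3 CPM in the brains, 5.1, 4.51 and 5.66 in SHH tumors and 197, 239 and 233 in grafts. For both genes the groups did not overlap, the SHH tumors were the lowest tumors and the grafts the highest. Psmb8 had a log2 fold of 5.3 ± 0.33 over all tumors and 2.03 ± 0.3 in SHH tumors (adjusted p = 0.00532), and it was kept with each library left out. H2-K1, a class I heavy chain gene with near-identical family members that make its counts uncertain, read 18.4, 6.36 and 6.15 CPM in the brains and 63.2 to 1868 CPM in the tumors.

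Isg15, a ubiquitin-like modifier and among the most interferon-responsive genes, read 0.707, 0.835 and 1.48 CPM in the brains, 5.92, 4.75 and 4.47 in SHH tumors and 15 to 190 in the other tumors. Ifit1, which binds viral RNA, read 0.461, 0.32 and 0.851 CPM in the brains and 1.5 to 257 CPM in the tumors. Extracranial tumor 4 was the lowest of its group for both, at 15 and 29.3 CPM. Parp9, an ADP-ribosyltransferase family member next to Dtx3l, read 4.64, 3.27 and 3.51 CPM in the brains and 9.92 to 165 CPM in the tumors (4.19 ± 0.28). Oas1a belongs to a cluster of similar genes, and Parp9 and Dtx3l have neighbouring starts on opposite strands, so their counts are uncertain where reads could be shared.

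Zc3hav1, the zinc finger antiviral protein that binds CpG-rich RNA (chr6:38305286-38354603), read 5.27, 3.14 and 3.76 CPM in the brains, 23.8, 18.8 and 32.5 in SHH tumors and 113 to 239 in the other 11 tumors (4.73 ± 0.3). Mavs, the mitochondrial adaptor of the RNA sensors, read 3.97, 7.31 and 5.47 CPM in the brains and 23.5 to 67 CPM in the tumors (3.02 ± 0.3). Mavs was the 1 shared gene among 14 nucleic acid sensor genes, of which 12 rose over all tumors. Both genes were kept with each library left out. Of the 8 shared interferon genes, 4 were kept without Healthy brain 1, 1 without Healthy brain 2, none without Healthy brain 3 and 1 without SHH CNS tumor 3; leaving out SHH CNS tumor 1 or 1 graft kept 4, and Myc CNS tumor 4 kept 5. For Isg15 the largest p was 0.156 without Healthy brain 2 and 0.118 without SHH CNS tumor 3. Of the 5 class I genes 1 was kept without Healthy brain 2 or Healthy brain 3, and 3 without SHH CNS tumor 3.

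MHC class II genes, which present peptides to CD4+ T cells and are made mainly by professional antigen-presenting cells, were higher by large folds. All 9 rose over all tumors (median log2 fold 6.85) and 6 were shared: Cd74, H2-Aa, H2-Ab1, H2-DMb1, H2-Oa and Ctss. Cd74, the invariant chain, read 1.01, 0.602 and 0.66 CPM in the brains. SHH CNS tumor 3 read 157 CPM, and SHH CNS tumors 1 and 2 read 7.44 and 5.64. The grafts read 2260, 4117 and 3311 CPM. H2-Aa followed the same order, at 0.262, 0.369 and 0.263 CPM in the brains, 1.8, 0.964 and 73.2 in SHH tumors and 1280 to 2499 in grafts. Neither gene's groups overlapped, and within the SHH group 1 library supplied most of the signal. Without SHH CNS tumor 3 the largest p was 0.151 for Cd74 and 0.304 for H2-Aa, and without Healthy brain 1, 2 or 3 it was 0.0801, 0.118 and 0.133 for Cd74. Of the 6 genes, 2 were kept without Healthy brain 1, 1 without Healthy brain 2, none without Healthy brain 3, 1 without SHH CNS tumor 3, 4 without Syngeneic graft 1 and 3 without Syngeneic graft 3.

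All 22 macrophage and monocyte genes rose over all tumors (median log2 fold 4.83), and 9 were shared: Itgam, Lyz2, Fcgr1, Ms4a7, Ly86, Aif1, C1qa, Cybb and Laptm5. The 22 genes summed to 118.0 to 198.5 CPM in the brains and to 608.7 to 790.9 CPM in the SHH group. Sums of the Myc group ran from 2566 to 8157 CPM, those of extracranial tumors from 4398 to 12980 CPM and those of grafts from 11550 to 15910 CPM. Whether the sampled tumor cells or host cells made these transcripts was not tested.

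Lyz2, a lysozyme gene with a close paralog, read 4.49, 2.59 and 4.33 CPM in the brains, 38.2, 81.5 and 250 in SHH tumors and 530 to 5000 in the other tumors (7.92 ± 1.03). Itgam, the CD11b integrin chain (chr7:128062640-128118491), read 0.913, 0.709 and 0.859 CPM in the brains and 5.74 to 147 CPM in the tumors (5.66 ± 0.61). Every tumor exceeded every brain for both, with the SHH tumors lowest. Clec7a, the Dectin-1 receptor of myeloid cells, read 0.199, 0.369 and 0.39 CPM in the brains and 7.17 to 470 CPM in the tumors. Trem2, a lipid receptor of microglia and macrophages, read 3.29, 2.01 and 2.27 CPM in the brains and 15.1 to 108 CPM in the tumors. The tumor groups did not differ for Trem2 at the threshold (adjusted p = 0.0923).

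Some leukocyte genes held the rule with every library left out. Cebpa, the transcription factor that drives myeloid development and also acts in liver and fat (chr7:35119293-35121928), read 2.11, 1.92 and 2.05 CPM in the brains, 8.78, 7.73 and 6.66 in SHH tumors and 40.5 to 88 in the others (4.27 ± 0.23). Vsir, the VISTA checkpoint gene and the 1 shared gene of 10 checkpoint genes, read 6.79, 6.29 and 6.02 CPM in the brains and 36.3 to 350 CPM in the tumors. Cst7, a cathepsin inhibitor of activated microglia and lymphocytes, reached its highest level in an SHH tumor. It read 3.17, 7.71 and 3.25 CPM in SHH tumors, 0.521 to 2.89 in Myc tumors and 0.0477 to 0.0582 in the brains. Selplg, the P-selectin ligand, read 0.795 to 1 CPM in the brains and 8.44 to 92.6 CPM in the tumors. Cd52, a leukocyte surface peptide, read 0.318 to 0.453 CPM in the brains and 5.1 to 243 CPM in the tumors, while Ctsc, the lysosomal protease that activates granule enzymes, read 9.37 to 11.7 and 36.4 to 1517 CPM. The SHH tumors were the lowest tumors for Cebpa, Cd52 and Ctsc, but not for Cst7.

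Markers of particular cell types were uneven. Of 10 microglia genes 6 rose and 2 fell over all tumors, where 23.6% of all genes rose and 29.8% fell. The shared ones numbered 2, among them Olfml3. Olfml3, a secreted glycoprotein, read 19.5, 10.4 and 8.37 CPM in the brains and 51.4 to 765 CPM in the tumors. Every tumor exceeded every brain for Olfml3, which no longer met the rule without Healthy brain 2 (largest p 0.0566) or Healthy brain 3 (0.0624). The defining receptor P2ry12 read 4.3, 4.24 and 4.26 CPM in the brains and 3.3 to 49 CPM in the tumors, so that the groups overlapped. Sall1, a factor of microglia and of other neural cells, was lower in the comparison of all tumors (-3.88 ± 0.55) but was not shared. None of the 10 microglia genes was called lower in SHH tumors. Of 22 T and NK cell genes 16 rose over all tumors, but their sum was 6.958 to 7.302 CPM in SHH tumors, below the brains' 11.31 to 15.36, and 289.6 to 495.8 CPM in grafts. Klrk1, the NKG2D receptor, was the 1 shared member. It gave no count in the brains, 0.0773, 0.047 and 0.238 CPM in SHH tumors and 29.4 to 46.3 CPM in grafts, and Cd3e, a T cell receptor subunit, was at 0, 0.0235 and 0.487 CPM in SHH tumors. Klrk1 was kept without 6 of the 17 libraries only, and its largest p was 0.17 without SHH CNS tumor 3 and 0.14 without Healthy brain 3.

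Slamf7, a receptor of NK, plasma and myeloid cells, read 0.00794, 0.0194 and 0.0239 CPM in the brains, 0.18, 0.047 and 2.08 in SHH tumors and 0.782 to 51 in the others. Scimp, an adaptor of antigen-presenting cells, gave 0.00794, 0 and 0.00795 CPM in the brains and 0.155 to 34.9 CPM in the tumors. Sirpb1a, a myeloid receptor gene with close relatives, had no count in the brains and 0.0235 to 34.5 CPM in the tumors. All tumors exceeded all brains for these genes, which were near or under the counting floor in brain. The lowest tumor values of Sirpb1a (0.0235 CPM) and Slamf7 (0.047 CPM) also lay near the floors of the tumor groups, 0.0137 to 0.0223 CPM. For those 2 genes the gap thus rests on few counts. Cyp4f18, a fatty acid hydroxylase of leukocytes, read 0.103, 0.0388 and 0.0636 CPM in the brains and 0.927 to 83.2 CPM in the tumors. Ifi27l2a, an interferon-induced gene, read 1.25, 0.398 and 0.445 CPM in the brains and 12 to 733 CPM in the tumors. Slamf7 was kept without 9 of the 17 libraries and Sirpb1a and Ifi27l2a without 8 each, with a largest p of 0.316, 0.183 and 0.166 over all 17 cases.

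**Figure D3:**
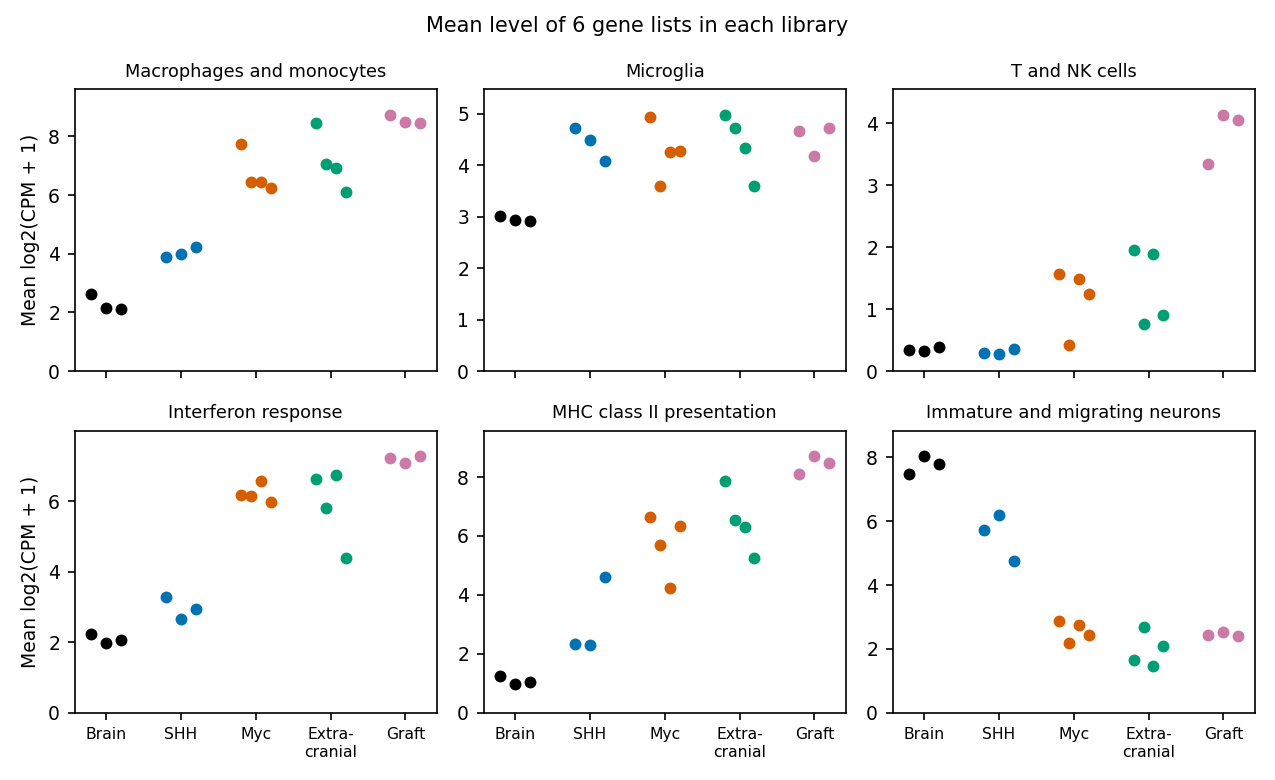
Mean of log2(CPM + 1) over the genes of 6 lists (y axis) in each library, by group (x axis; 1 point per library). Macrophage, microglia, interferon and MHC class II scores of every tumor exceed those of every brain, T and NK scores of the SHH tumors do not, and immature neuron scores of every tumor lie below those of every brain.

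Intracellular signalling genes of leukocytes were put into a list of 38 after their values had been seen, so their count is a description only. Of these 37 rose over all tumors and 28 were shared. Ptprc, the CD45 phosphatase of all nucleated blood cells, read 3.59, 2.24 and 2.08 CPM in the brains, 9.87, 8.39 and 18.3 in SHH tumors and 65.5 to 470 in the others. Vav1, an exchange factor below antigen receptors, read 2.77, 1.35 and 1.28 CPM in the brains and 6.21 to 93.9 CPM in the tumors. Inpp5d, the SHIP1 phosphatase, read 8.12, 5.45 and 5.82 CPM in the brains and 16.6 to 191 CPM in the tumors. For these 3 genes the SHH tumors were the lowest tumors and the grafts the highest. Irf8, a myeloid transcription factor, and Dock2, an activator of Rac in leukocytes, read 2.33 to 2.47 and 1.66 to 2.31 CPM in the brains, and the SHH tumors stood at 8.7 to 12 and 9.05 to 9.4 CPM. Cd72, an inhibitory receptor of B cells and macrophages, read 0.0557 to 0.146 CPM in the brains and 1.36 to 140 CPM in the tumors. Toll-like receptor genes and their adaptors, likewise listed afterwards, gave 8 shared genes of 22, among them Tlr2, at 0.756 to 1.41 CPM in the brains and 5.85 to 89.3 in the tumors, and the adaptor Myd88, at 3.17 to 6.84 and 10.6 to 118 CPM. None of the 8 was kept without Healthy brain 2 or Healthy brain 3, 4 without SHH CNS tumor 3 and 5 without Healthy brain 1.

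PU.1, the myeloid master factor, binds sequences around GAGGAAGT. These letters were found, on either strand, in 7.8% of the promoter windows of the higher genes, 3.33% of those of the lower genes and 3.7% of all. In the last 150 bases before the start, 4 of the 33 shared leukocyte and macrophage genes with a promoter in the table held a match and 29 did not. No share over all genes is given for this shorter stretch, so the count has no background here. For 3 of the 4 the stretch is printed, with the match in capitals, since they were described just above:
Vav1 (chr17:57278950-57279099, plus): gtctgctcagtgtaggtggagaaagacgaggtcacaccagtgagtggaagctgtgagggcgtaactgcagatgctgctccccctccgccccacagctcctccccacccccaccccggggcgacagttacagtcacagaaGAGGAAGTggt
Inpp5d (chr1:87620162-87620311, plus): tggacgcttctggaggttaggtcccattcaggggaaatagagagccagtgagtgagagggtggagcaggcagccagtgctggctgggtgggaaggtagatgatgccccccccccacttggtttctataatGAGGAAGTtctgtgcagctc
Cd72 (chr4:43454627-43454776, minus): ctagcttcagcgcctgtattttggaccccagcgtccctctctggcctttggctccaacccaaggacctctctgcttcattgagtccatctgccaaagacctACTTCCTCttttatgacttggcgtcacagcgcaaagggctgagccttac

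Higher genes lay near one another at 3 places in the genome, in runs of at least 4 with gaps of up to 200 kb. Other tested genes lay among them. On chromosome 1, between 171388954 and 172197005, 7 of 22 tested genes were shared and higher, including the SLAM receptors Ly9, Slamf7, Cd48, Cd84 and Slamf6, which tune contacts between leukocytes. On chromosome 17, between 33996017 and 34287823, there were 8 of 18, all named above as class I or class II genes. On chromosome 7, between 127769815 and 128150657, there were 5 of 23, among them Itgam, its relative Itgax and the inflammasome adaptor Pycard. Cd48 read 0.27, 0.369 and 0.263 CPM in the brains and 2.16 to 77.3 CPM in the tumors, and Ly9 read 0.199, 0.272 and 0.231 and 2.03 to 94.4 CPM. The SLAM list, 7 of 11 shared, was also drawn up after the values were seen. Leaving out a brain, an SHH tumor or a graft ended many of the leukocyte calls. Of the 9 macrophage genes 2 were kept without Healthy brain 1, none without Healthy brain 2 or Healthy brain 3, 1 without SHH CNS tumor 3, 4 without SHH CNS tumor 2 and 5 without SHH CNS tumor 1 or any 1 graft. Of the 28 signalling genes 11, 4 and 3 were kept without Healthy brain 1, 2 and 3, 16, 12 and 4 without SHH CNS tumor 1, 2 and 3, and 15 without Syngeneic graft 3. Of the 7 SLAM genes 2, 0 and 3 were kept without Healthy brain 2, Healthy brain 3 and SHH CNS tumor 3.

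Lysosome genes rose in 18 of 20 cases over all tumors (median log2 fold 2.14), where 23.6% of all genes rose and 29.8% fell. Ctsc and Ctsd were shared. Ctsd, the aspartic protease cathepsin D, read 110, 55.3 and 56.7 CPM in the brains, with Healthy brain 1 the highest, and 172 to 493 CPM in the tumors. Its largest p was 0.0674 without Healthy brain 2 and 0.0825 without Healthy brain 3. Hox genes, which set position along the body axis caudal to the forebrain, rose in 25 of 36 cases and fell in none. Their median log2 fold was 6.86, or 6.16 when groups without a count are set at the 3-count floor. Hoxc6, Hoxc8 and Hoxd8 were shared. Hoxc6 read 0.00794, 0.0194 and 0 CPM in the brains, 0.103, 0.188 and 0.34 in SHH tumors and 3.72 to 69.5 in the others. Hoxd8 read 0.278, 0.0873 and 0.0716 CPM in the brains and 8.6, 20.7 and 1.87 in SHH tumors, which lay within the 0.748 to 44.8 CPM of the other tumors. None of the 3 was kept without Healthy brain 1, Healthy brain 2, Healthy brain 3 or SHH CNS tumor 3, and for Hoxc6 the largest p was then 0.0864, 0.0758, 0.126 and 0.126. SHH CNS tumor 2 or Syngeneic graft 3 left out kept 1.

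Inppl1, the SHIP2 phosphatase that opposes PI3-kinase signalling, read 36.5, 28.1 and 21.5 CPM in the brains and 97.3 to 222 CPM in the tumors, with folds of 2.22 ± 0.29 to 2.52 ± 0.29 in the 4 groups. Nde1, a centrosomal dynein partner needed for cortical progenitor division, read 24.9, 19.5 and 12.7 CPM in the brains and 54.5 to 110 CPM in the tumors. The 4 tumor groups did not differ at the threshold for either (adjusted p = 0.628 and 0.709). Gss, glutathione synthetase, read 7.48, 6.24 and 5.74 CPM in the brains and 16.9 to 42.1 CPM in the tumors. Msrb2, a mitochondrial methionine sulfoxide reductase, read 3.72, 3.38 and 3.93 CPM in the brains and 9.23 to 20.8 CPM in the tumors. These 4 genes were kept with every library left out.

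Yap1, the Hippo pathway coactivator, read 45.8, 30.8 and 24.6 CPM in the brains and 60.8 to 312 CPM in the tumors (2.22 ± 0.29), and its largest p was 0.0849, 0.0993 and 0.0848 without Healthy brain 2, Healthy brain 3 and SHH CNS tumor 3. Fgfr1, a receptor tyrosine kinase, read 173, 107 and 146 CPM in the brains and 321 to 2125 CPM in the tumors. SHH CNS tumor 3, at 1682 CPM, stood over its group mates at 321 and 528, and without it the largest p for Fgfr1 was 0.242. Fgfr1 was kept without 7 of the 17 libraries; the p reached 0.104, 0.162 and 0.168 without Healthy brain 1, 2 and 3 and lay between 0.051 and 0.0676 for the other libraries that ended its membership. Other oncogenes and fetal genes were not shared. Myc itself did not meet the rule: it read 20.4, 28.2 and 30.6 CPM in the brains, 10.2, 20 and 6.53 in SHH tumors and 97.3 to 201 in the other 11 tumors. Mycn, its neural relative, read 29.1, 56.4 and 47.2 CPM in the brains, 27.4, 85.5 and 249 in SHH tumors and 0.156 to 2.62 in the others. Hmga2, a fetal chromatin protein gene, ran from 1.1 to 794 CPM over the tumors, with Extracranial tumors 1 and 3 at 2.78 and 1.1 CPM beside 383 and 168 in the other 2. Gli1, Ptch1 and Igf2bp1 were not called over all tumors (adjusted p = 0.265, 0.579 and 0.703). Of 12 Polycomb repressive complex 2 genes 3 rose and 3 fell over all tumors, near the shares of 23.6% and 29.8% over all genes, and none was shared.

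**Figure D4:**
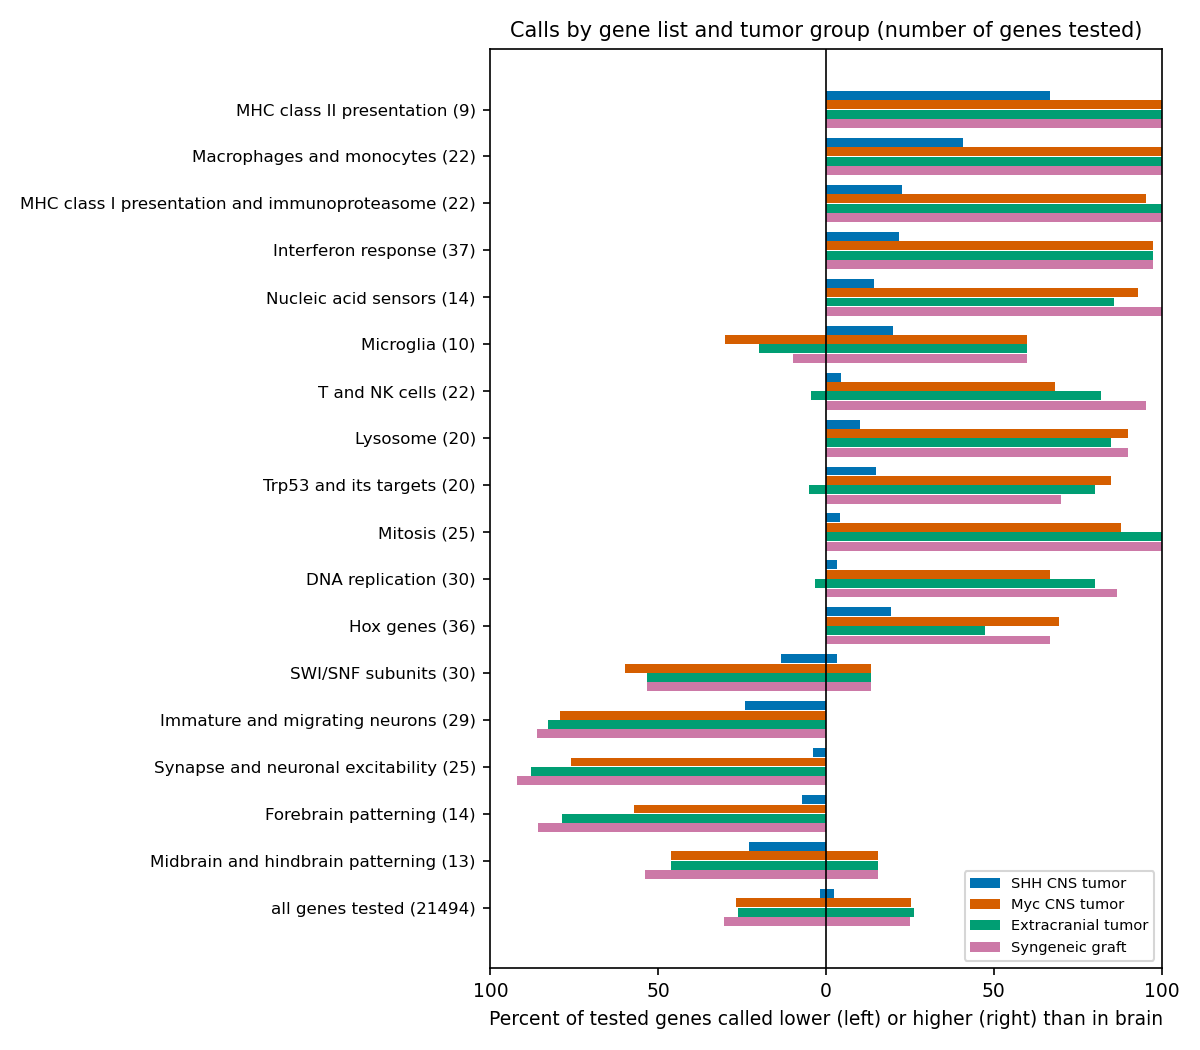
Percent of the tested genes of each list called higher (right of 0) or lower (left of 0) than in brain in each tumor group (bars; number of genes tested in brackets), with all 21494 genes in the last row. SHH bars are the shortest of their list in most rows, for instance 9 of 22 macrophage genes against all 22 in the other 3 groups.

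Neurons build long microtubules from tubulins, on which kinesins and dynein carry cargo, and Dcx, Mapt and Crmp1 shape these tracks in young neurons. A list of 48 tubulin and microtubule genes, drawn up after their values had been seen, held 38 that fell and 3 that rose over all tumors, and 20 shared lower genes. Tuba1a, the main alpha-tubulin of developing neurons (chr15:98949837-98953703), read 5172, 6304 and 6327 CPM in the brains, 980, 1990 and 921 in SHH tumors and 249 to 516 in the others (-3.54 ± 0.18, adjusted p = 3.77e-08). Tubb5, a beta-tubulin widely expressed in dividing cells, fell by less and by a similar amount in each group, from 2294, 2488 and 2532 CPM in the brains to 533 to 1159 CPM (-1.38 ± 0.17). The tumors were below the brains for both, and the 4 tumor groups did not differ at the threshold for Tubb5 (adjusted p = 0.467). Tubulin genes have close paralogs, so their counts are uncertain to that extent.

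Kif21b, a kinesin of axons and dendrites (chr1:136131389-136177998), read 578, 698 and 685 CPM in the brains, 81.9, 106 and 21.8 in SHH tumors and 9.43 to 48.1 in the others (-4.52 ± 0.32). Kif26a, a kinesin-like protein without motor activity, read 100, 79.5 and 63.1 CPM in the brains and 1.6 to 12.5 CPM in the tumors. Kif3a, the motor of ciliary and axonal transport, read 173, 199 and 210 CPM in the brains and 20.3 to 95.7 CPM in the tumors. No tumor overlapped the brains for these 3 genes, and SHH CNS tumors 1 and 2 were the highest tumors for each. Dync1h1, the dynein heavy chain, changed little but evenly, from 636, 684 and 811 CPM to 310 to 513 CPM (-0.76 ± 0.14). Tuba1a, Tubb5, Kif21b and Kif26a were kept with every library left out. Of all 20 genes, 13, 5 and 4 were kept without Healthy brain 1, 2 and 3, 12 and 4 without SHH CNS tumor 1 and 3, and at least 14 without any other library.

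Genes of immature and migrating neurons fell in 25 of 29 cases over all tumors and rose in none (median log2 fold -6.01), and 6 were shared: Dcx, Neurod2, Neurod6, Tbr1, Crmp1 and Mapt. Their summed level was 15780 to 19710 CPM in the brains, 2825 to 6284 in SHH tumors and 317 to 1708 in the other tumors. Dcx, the doublecortin gene that marks migrating neurons (chrX:143855842-143933311), read 972, 1607 and 1367 CPM in the brains. It read 70, 101 and 14.4 CPM in SHH tumors and 0 to 0.583 CPM in the other 11 tumors. Crmp1, a mediator of semaphorin signalling, read 1200, 1274 and 1316 CPM in the brains, 166, 258 and 32.1 in SHH tumors and 0.477 to 4.04 in the others. Each gene thus had 3 separate levels, with SHH CNS tumor 3 the lowest of its group. Tbr1, a factor of deep-layer cortical neurons, read 30.6, 109 and 67.3 CPM in the brains and 0.034 to 4.87 CPM in the tumors. The largest p of Dcx was 0.075 without Healthy brain 2, 0.0849 without Healthy brain 3, 0.0519 without SHH CNS tumor 1 and 0.0925 without SHH CNS tumor 3. Of the 6 genes, 3 were kept without Healthy brain 1 or SHH CNS tumor 1, none without Healthy brain 2, Healthy brain 3 or SHH CNS tumor 3, and 4 without SHH CNS tumor 2.

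Synapse genes fell in 21 of 25 cases over all tumors (-4.78), yet 1 alone was shared: Stx1a, the syntaxin of vesicle release. It read 108, 111 and 126 CPM in the brains, 22, 31.6 and 11.8 in SHH tumors and 5.46 to 23.7 in the others (-3.21 ± 0.25), and was kept with every library left out. The summed level of the synapse genes in SHH tumors ran from 1380 to 7881 CPM, across the brains' 5333 to 6955. Forebrain patterning genes fell in 12 of 14 cases and midbrain and hindbrain patterning genes in 8 of 13, with 2 higher. Of all genes, 29.8% fell and 23.6% rose. Emx1, a dorsal forebrain factor, read 3.41, 6.9 and 6.75 CPM in the brains and 0 to 0.386 CPM in the tumors. Barhl1 and Pax7, factors of hindbrain and midbrain, spread widely within the brains, at 12.2, 29.3 and 56.7 CPM and at 2.71, 16.9 and 44.6 CPM, and reached at most 2.3 and 1.06 CPM in a tumor. None of Emx1, Barhl1 and Pax7 was kept without any 1 of Healthy brain 1, 2 or 3 or of SHH CNS tumor 1, 2 or 3.

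Further neuronal genes were nearly silent outside the SHH tumors. Neurod6, a factor of young cortical neurons, read 47.5, 195 and 200 CPM in the brains, 11.3, 4.75 and 4.43 in SHH tumors, at most 0.149 in Myc tumors and grafts, and had no count in extracranial tumors. Stk32b, a kinase gene, read 61.7, 98.1 and 108 CPM in the brains, 5.59, 12.1 and 11.8 in SHH tumors and at most 0.359 in the others. Mpped1, a gene of the developing cortex, read 168, 259 and 250 CPM in the brains and 0 to 9.63 CPM in the tumors. The brains, the SHH tumors and the remaining tumors formed 3 separate ranges for each of these genes. Ebf3, a neuronal differentiation factor, differed in that the 4 tumor groups were not told apart (adjusted p = 0.249), at 73.1, 120 and 195 CPM in the brains and 0.912 to 19.6 CPM in the tumors. Stk32b was kept without 5 of the 17 libraries and Ebf3 without 9, with a largest p of 0.168 and 0.147 over all 17 cases.

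Onecut3, a factor of early neurons, and Lefty2, a secreted Nodal antagonist, were both lower in tumors. Onecut3 read 5.62, 7.43 and 6.18 CPM in the brains and 0 to 0.232 CPM in the tumors. Lefty2 read 3.92, 3.36 and 4.29 CPM in the brains, 0.103, 0.0705 and 0.0453 in SHH tumors, at most 0.0488 in Myc and extracranial tumors, and had no count in the grafts. Gpr21, an orphan receptor, read 14.9, 34.4 and 31.9 CPM in the brains and 0.034 to 1.67 CPM in the tumors. These 3 genes were kept with every library left out. Rac3, a small GTPase of neurons, read 166, 148 and 183 CPM in the brains and 4.49 to 50.7 CPM in the tumors (-3.84 ± 0.24), and Dok4, a docking protein of receptor kinases, read 97.2, 93.2 and 115 and 4.44 to 17.3 CPM (-3.61 ± 0.24); both were kept in the same way.

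Several lower genes are not restricted to neurons. Acvr2a, a type II activin receptor, read 161, 197 and 172 CPM in the brains and 15.9 to 58.8 CPM in the tumors (-2.85 ± 0.14). Agrn, the heparan sulfate proteoglycan that clusters receptors at synapses, read 795, 794 and 836 CPM in the brains and 89.8 to 257 CPM in the tumors. No tumor approached the brains for either gene. Kdm2b, a demethylase that brings a variant Polycomb complex to CpG islands, read 107, 131 and 139 CPM in the brains and 28.2 to 54.5 CPM in the tumors. H3f3b, a histone H3.3 gene, read 1067, 787 and 1056 CPM in the brains and 238 to 647 CPM in the tumors (-1.1 ± 0.14). Amz2, a metallopeptidase, read 192, 234 and 230 CPM in the brains and 36.8 to 84.5 CPM in the tumors (-1.97 ± 0.1). These 5 genes were kept with every library left out.

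The tumor suppressor genes Apc and Dicer1 were shared and lower. Apc, a brake on Wnt signalling, read 501, 637 and 625 CPM in the brains, 379, 372 and 183 in SHH tumors and 91.8 to 119 in the others. Dicer1, which cuts microRNA precursors, read 147, 136 and 142 CPM in the brains and 48.6 to 89 CPM in the tumors. The tumors lay below the brains in each case, and for Dicer1 the 4 tumor groups did not differ at the threshold (adjusted p = 0.414). Without Healthy brain 2, Healthy brain 3 and SHH CNS tumor 3 the largest p was 0.057, 0.0681 and 0.0595 for Dicer1. Apc was lost without 10 of the 17 libraries, with a p between 0.0515 and 0.14. Cholesterol synthesis genes, listed after their values were seen, fell in 14 of 23 cases over all tumors, where 29.8% of all genes fell. Acat2, Hmgcs1 and Fdps were shared. Hmgcs1, the enzyme that makes HMG-CoA, read 545, 872 and 835 CPM in the brains and 57.9 to 314 CPM in the tumors. None of these 3 was kept without Healthy brain 2, Healthy brain 3, SHH CNS tumor 1 or SHH CNS tumor 3, and 1 was kept without Healthy brain 1 or any 1 graft.

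**Figure D5:**
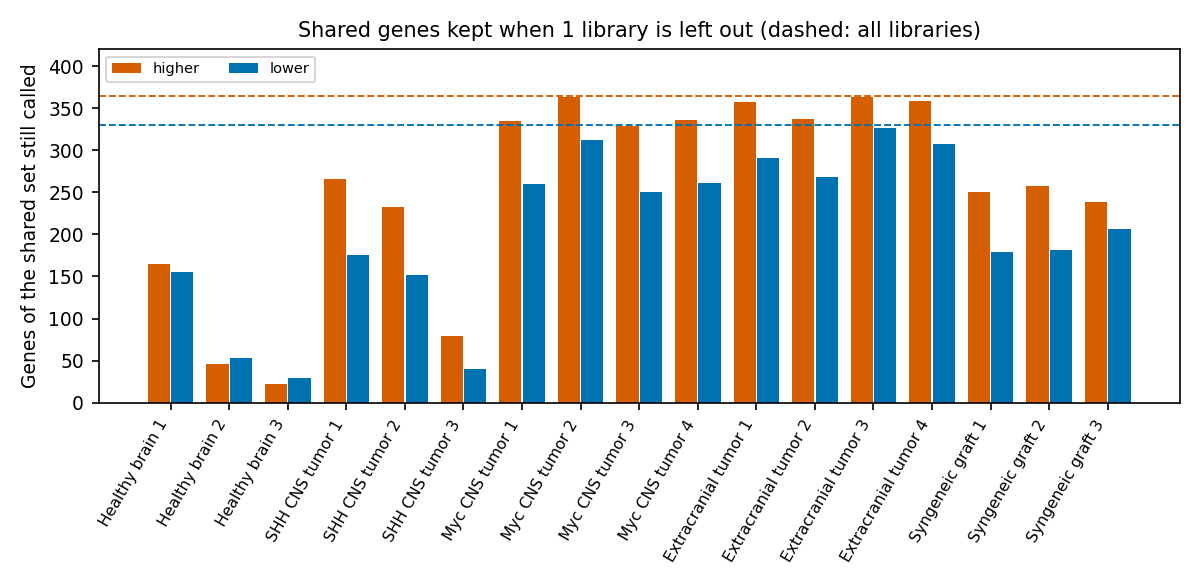
Number of the shared genes that still met the rule (y axis) when each of the 17 libraries was left out (x axis), higher and lower genes drawn separately. The counts fall lowest without Healthy brain 3 (22 higher, 29 lower), Healthy brain 2 (46 and 53) and SHH CNS tumor 3 (79 and 40).

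Membership of the set as a whole rested on few libraries, as the plot of genes kept by library shows. Without Healthy brain 3, 22 of the 364 higher and 29 of the 330 lower genes were kept, without Healthy brain 2 46 and 53, and without SHH CNS tumor 3 79 and 40. Left-out Myc or extracranial tumors kept at least 329 and 250, and left-out grafts at least 238 and 179. The genes kept in all 17 cases numbered 22 higher and 28 lower. The genes higher in this way were Cdkn2a, Cst7, Cd52, Selplg, Vsir, Zbtb7b, Zc3hav1, Ctsc, Mavs, Inppl1, Psmb8, Cyb5r1, Nde1, Gnpda1, Cebpa, Nab2, Gss, Prorsd1, Msrb2, Rreb1, Siae and Tjap1. At the threshold itself, Trim30a and Nkap were the last inside, each with a largest p of 0.04988, and Numb and Hnrnpa0 were the first outside, at 0.05005. A further 19 higher and 5 lower genes were called in each group, but had a tumor within the brains' range.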

How the data were processed

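Polyadenylated RNA of 14 tumors and 3 healthy brains was sequenced as stranded libraries, per the labels' protocols. The authors deposited whole-number read counts per gene for each library; STAR 2.5.3a and the build mm10 are named in the submitters' processing notes, while the counting tool, annotation and strand setting are not given in the sources used here. Symbols and coordinates came from GENCODE M21 (GRCm38), which matched 45737 of 50600 gene IDs with their version and 50376 once the version was removed. Promoters came from RefSeq (GRCm38.p6).

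Counts were filtered with edgeR's filterByExpr (minimum count 10), which left 21494 genes and 99.96% of counts, scaled by TMM and fitted over 5 groups with edgeR 4.0.16 (robust quasi-likelihood; R 4.3.3). The contrast of all tumors weighs the 4 tumor groups equally. P-values were Benjamini-Hochberg adjusted over all genes tested, with a threshold of 0.05. Tables and figures used Python 3.11.15, pandas 2.3.3, numpy 2.4.6 and matplotlib 3.10.9. The fit was tested on simulated data. Alternatives used limma 3.58.1, DESeq2 1.42.0, other filters and thresholds, and each library left out.

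The comparison, gene lists and rules were chosen with earlier results of these data known. Named genes were the 15 per direction with the largest smallest-group change among shared genes with an average of at least 10 CPM on the higher side, genes tied to the study, and shared members of the described lists or else those with the smallest p. Further genes, and the lists of leukocyte signalling, SLAM, Toll-like receptor, microtubule and cholesterol synthesis genes, were added after their values were seen. DESeq2 gave no adjusted p for Smarcb1. Some results are not reported here.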

Additional observations from a re-analysis of the deposited data

Results flagged for a closer look

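In 8 of 80 groups of 4 libraries tested over 40 named genes, 1 library stood apart from its group, where chance sets apart about 1 in 20 normally distributed groups. Whether these CPM, some of them near 0, are so distributed was not checked, so 8 of 80 is not read as an excess. Myc CNS tumor 1 was the highest of its group for Lyz2 (2370 CPM, others 593 to 687), Ifi27l2a (733 CPM) and Pax7 (0.273 CPM). Extracranial tumor 3 was the highest for Barhl1 (0.597 CPM) and Neurod2 (0.119 CPM, others 0). Extracranial tumor 4 was the lowest for Ifi27l2a (16.8 CPM, others 409 to 586). Myc CNS tumor 2 was the highest for Hs3st2 (0.886 CPM), and Myc CNS tumor 4 for Mpped1 (0.777 CPM).

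The 4 tumor groups differed from one another for 36 of the 40 genes, by edgeR's F test on 3 contrasts with adjusted p over all genes. Among leukocyte and antigen presentation genes the adjusted p was 1.34e-06 for Psmb8, 9.33e-05 for B2m, 0.000625 for Clec7a, 0.000791 for Cyp4f18, 0.00125 for Sirpb1a, 0.00479 for Cd72, 0.00541 for Lyz2, 0.00587 for H2-Ab1, 0.00607 for Slamf7, 0.00665 for Scimp, 0.0121 for Cd74, 0.0139 for H2-Aa and 0.0172 for Ifi27l2a. Among neuronal and patterning genes it was 7.11e-06 for Dcx, 1.7e-05 for Stk32b, 2.72e-05 for Neurod6, 4.71e-05 for Mpped1, 0.000118 for Barhl2, 0.000172 for Neurod2, 0.000295 for Tbr1, 0.000346 for Otof, 0.000663 for Hs3st2, 0.000868 for Gpr21, 0.00273 for Kif21b, 0.00354 for Crym, 0.0129 for Barhl1 and 0.0189 for Pax7. Of the Hox genes, Hoxc8 gave 8.78e-05 and Hoxc6 0.000273. Growth genes gave 2.39e-06 for Mycn, 4.24e-05 for Cdkn2a, 7.2e-05 for Ptch1, 8.08e-05 for Myc, 0.000166 for Gli1, 0.00342 for Trp53 and 0.0259 for Hmga2.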

How the results depend on the processing

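The number of shared genes depended on the processing more than the single genes' directions did. Against 364 higher and 330 lower genes, the counts were 229 and 214 with every gene that had a count, 847 and 863 with DESeq2, 1068 and 1939 with limma voom with quality weights, 47 and 36 at an adjusted p under 0.01, 224 and 173 when the largest p of the 4 groups was adjusted, and 3205 and 4122 when SHH tumors were not required. Lower genes numbered 132 in libraries thinned to the same total and 147 when both Healthy brain 1 and SHH CNS tumor 1 were dropped. They numbered 129 without the 5 libraries marked by muscle, pituitary or oligodendrocyte transcripts, an alternative chosen after seeing the data. Leaving out each library gave 23 to 535 higher and 30 to 435 lower genes. Over all tumors, 2848 genes fell when only the compared groups were fitted, 3257 rose at an adjusted p under 0.01, and 6662 then differed among the tumor groups.

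Of 208 named genes followed through 27 alternatives, those that lost their call (the shared rule for shared genes, the comparison of all tumors for the rest) numbered 55 with compared groups only, 38 with every gene that had a count, 43 in thinned libraries, 25 with the replicate block, 7 with limma voom, 5 with RLE size factors and 65 without the 5 libraries. Leaving out 1 library lost 0 to 121, the most without Healthy brain 3 and 114 and 102 without Healthy brain 2 and SHH CNS tumor 3. In all, 3 genes changed sign, none of them called. Gli1, at -0.83, became 0.051 with limma voom, 1.103 with compared groups only, 0.25 with Healthy brain 1 and SHH CNS tumor 1 dropped, and 0.18 without the 5 libraries; with each library left out it ran from -1.17 to 0.22, the latter without Healthy brain 1. Ptch1, at -0.28, became 0.50 with compared groups only. Igf2bp1, at 0.70, became -0.86 with limma voom, and with each library left out it ran from -0.38, without Extracranial tumor 3, to 1.29. The cause was not tested.

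Same-numbered libraries did not deviate together (31 pairs, r from -0.18 to 0.14, 2 above 0.1), so no pairing by number was seen. With so few libraries per group, these correlations cannot exclude a shared animal, litter or batch. With the replicate number as a block, 332 higher and 273 lower shared genes were called, and 4845 genes rose and 6321 fell over all tumors. Fitting only the compared groups gave 288 higher and 311 lower shared genes, of which 190 and 171 were among those reported.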
